A study of Homo sapiens with 22 samples.

Results

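The genes described here are KRTAP2-3 and 8 keratins, KRT7, KRT8, KRT80, KRT81, KRT86, KRT18, KRT19 and KRT34, which are 9 of the 20668 gene symbols with an RPKM value (reads scaled for transcript length and for the number of mapped reads). They were taken by name with earlier results of these data known, and KRTAP2-3 was selected on its measured RPKM, which falls with Dex. Its values with Dex are therefore given as a description without a test. RNA was sequenced from MDA-MB-231, an established triple-negative breast cancer (TNBC) cell line that expresses the glucocorticoid receptor (GR, encoded by NR3C1). Cells had been held in charcoal-stripped serum, which is depleted of steroid hormones, and received vehicle, 100 nM dexamethasone (Dex, a synthetic glucocorticoid) for 2 h or 4 h, or 10 μM Compound A (CpdA, a non-steroidal GR ligand) for 2 h or 4 h. Each of the 5 groups held 2 samples of this single line, which the study calls biological replicates, so a p-value measures the spread between such samples, and all groups share the line and the serum. The paper describes vehicle treatment for 2 h and 4 h, but no treatment time is labelled for the vehicle samples. Both served as reference throughout, and any difference in time between them was not modelled. A change from 2 h to 4 h within a ligand therefore cannot be told apart from one with time alone.

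Keratins are the intermediate filament proteins of epithelial cells, and a filament is built from pairs of one acidic type I and one basic type II chain. KRT8 with KRT18, together with KRT7 and KRT19, make the filaments of simple epithelia and are routinely stained in breast pathology. KRT81, KRT86 and KRT34 belong to the hair keratins of the hair shaft cortex, and the keratin-associated proteins such as KRTAP2-3 form the cysteine-rich matrix between hair keratin filaments.

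In vehicle-treated cells the 4 simple epithelial keratins were among the most abundant transcripts and the hair-type genes were the lowest of the 9, with ranks of 7874 for KRT34, 8296 for KRTAP2-3, 8717 for KRT81 and 11590 for KRT86. KRT19 (type I) had a mean of 339.9 RPKM ± 15.9 (SD, n = 2) and ranked 84 of the 20668 symbols, followed by KRT7 (type II) at rank 105, KRT8 (type II) at rank 128 and KRT18 (type I) at rank 180. KRT80, a type II keratin of differentiating epithelia, stood at 56.0 RPKM ± 7.45. KRT34 (type I hair keratin) at 5.25 RPKM ± 0.834, KRTAP2-3 at 4.53 RPKM ± 0.686 and KRT81 (type II hair keratin) at 3.88 RPKM ± 0.207 followed, and KRT86 (type II hair keratin) was lowest at 0.890 RPKM ± 0.0084. RPKM is divided by length, which allows a comparison between genes, but how reads shared with other genes were assigned is not known. The levels of KRTAP2-3, KRT8, KRT18, KRT81 and KRT86, which share the most sequence, are therefore less certain. In this order only KRT34 and KRTAP2-3 had overlapping vehicle samples. After 4 h of Dex the order was KRT7, KRT8, KRT19, KRT18, KRT80, KRT81, KRT34, KRT86 and KRTAP2-3, with KRTAP2-3 now the lowest of the 9.

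On GRCh37 the type I genes and KRTAP2-3 lie on chromosome 17 and the type II genes and KRT18 on chromosome 12. KRTAP2-3 is a gene of a single exon at chr17:39215492-39216366 on the minus strand, and KRT34 has 7 exons at chr17:39533921-39538558, also on the minus strand. The stretch before the transcription start of KRTAP2-3 and KRT34 is shown because they are the 2 hair-type genes of the 9 that were lower after Dex. Both windows are the 250 bases upstream of the start, from RefSeq on GRCh38.p14, minus strand, 5′ to 3′, at chr17:41060115-41060364 for KRTAP2-3 and chr17:41382307-41382556 for KRT34. Capitals mark matches to TGTTCT, the glucocorticoid half-site, and to TATAAA, the TATA box.
KRTAP2-3: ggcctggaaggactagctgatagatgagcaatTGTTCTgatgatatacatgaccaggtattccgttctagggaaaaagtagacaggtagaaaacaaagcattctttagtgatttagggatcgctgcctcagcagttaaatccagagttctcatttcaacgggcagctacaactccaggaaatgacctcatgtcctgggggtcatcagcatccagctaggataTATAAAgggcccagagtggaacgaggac
KRT34: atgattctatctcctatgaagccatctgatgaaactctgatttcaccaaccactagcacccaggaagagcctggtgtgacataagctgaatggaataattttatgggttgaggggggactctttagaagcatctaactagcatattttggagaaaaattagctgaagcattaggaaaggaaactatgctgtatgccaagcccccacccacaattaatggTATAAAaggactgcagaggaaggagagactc
Both strands were searched for these letters, for a full glucocorticoid response element (the half-site preceded by its own reverse complement, 3 bases apart, so that it contains the half-site) and for TGANTCA, an AP-1 site. The KRTAP2-3 window held TGTTCT beginning 218 bases before the start and TATAAA beginning 28 bases before it, and the KRT34 window held TATAAA beginning 31 bases before the start. Of 35116 promoter windows of the same length, 12.4% held TGTTCT, 10.7% held TATAAA, 6.57% held TGANTCA and 0.00285% held the full element. These matches describe letters and not sites of binding. Of the 9 genes, 3 had a promoter window, the third being KRT8, whose window at chr12:52926470-52926719 on the minus strand held none of the 4 motifs. This window belongs to a single RefSeq start, and any other start of KRT8 was not searched.

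KRTAP2-3 fell from 5.01 and 4.04 RPKM in the vehicle samples to 0.322 and 0.662 RPKM after 2 h of Dex and to 0.303 and 0.230 RPKM after 4 h. All 4 Dex samples lay far below both vehicle samples. Its RPKM values in the 10 samples were whole multiples of the value of 1 read, to within 0.0001 read, and correspond to 219 and 179 reads with vehicle, 16 and 35 reads after 2 h of Dex and 14 and 11 reads after 4 h of Dex. Mean RPKM was 9.21 times higher with vehicle than after 2 h of Dex and 17.0 times higher than after 4 h. On the scale of log2(RPKM + 0.1), which understates the change of low genes, the differences from vehicle were -3.02 (SE 0.24) and -3.66 (SE 0.24). Among the 12713 genes with at least 0.5 RPKM in at least 2 samples, KRTAP2-3 had the third lowest difference from vehicle at either time, and the share of these genes called changed (adjusted p under 0.05) was 10.3% at 2 h and 27.4% at 4 h. The 2 h difference rested on the replicate kept, being -2.60 without Dex 2 h replicate 1 and -3.45 without replicate 2. From bulk RNA, fewer cells with a transcript and less of it per cell cannot be told apart.

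With CpdA the same gene stood at 4.72 and 4.55 RPKM after 2 h, within the range of the vehicle samples, and at 2.61 and 2.58 RPKM after 4 h, below both. The corresponding reads were 244 and 225 at 2 h and 132 and 131 at 4 h. The 2 h difference from vehicle was 0.04 (SE 0.24, limma adjusted p = 0.952) with a 95% interval from -0.50 to 0.58. The 4 h difference was -0.77 (SE 0.24, limma adjusted p = 0.0505), which did not pass the threshold of 0.05, although 7 of 19 alternative settings called it, with adjusted p from 0.00494 to 0.224. Between the CpdA times the difference was -0.81 (limma adjusted p = 0.0581) and between the Dex times it was -0.64, again with no test. The latter was -1.06 without Dex 2 h replicate 1 and -0.21 without Dex 2 h replicate 2. Side by side at 4 h, KRTAP2-3 stood at 5.88% of the vehicle mean with Dex and at 57.3% with CpdA, and the 4 h Dex samples were -2.89 (SE 0.24) from the 4 h CpdA samples on the log2 scale.

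**Figure D1:**
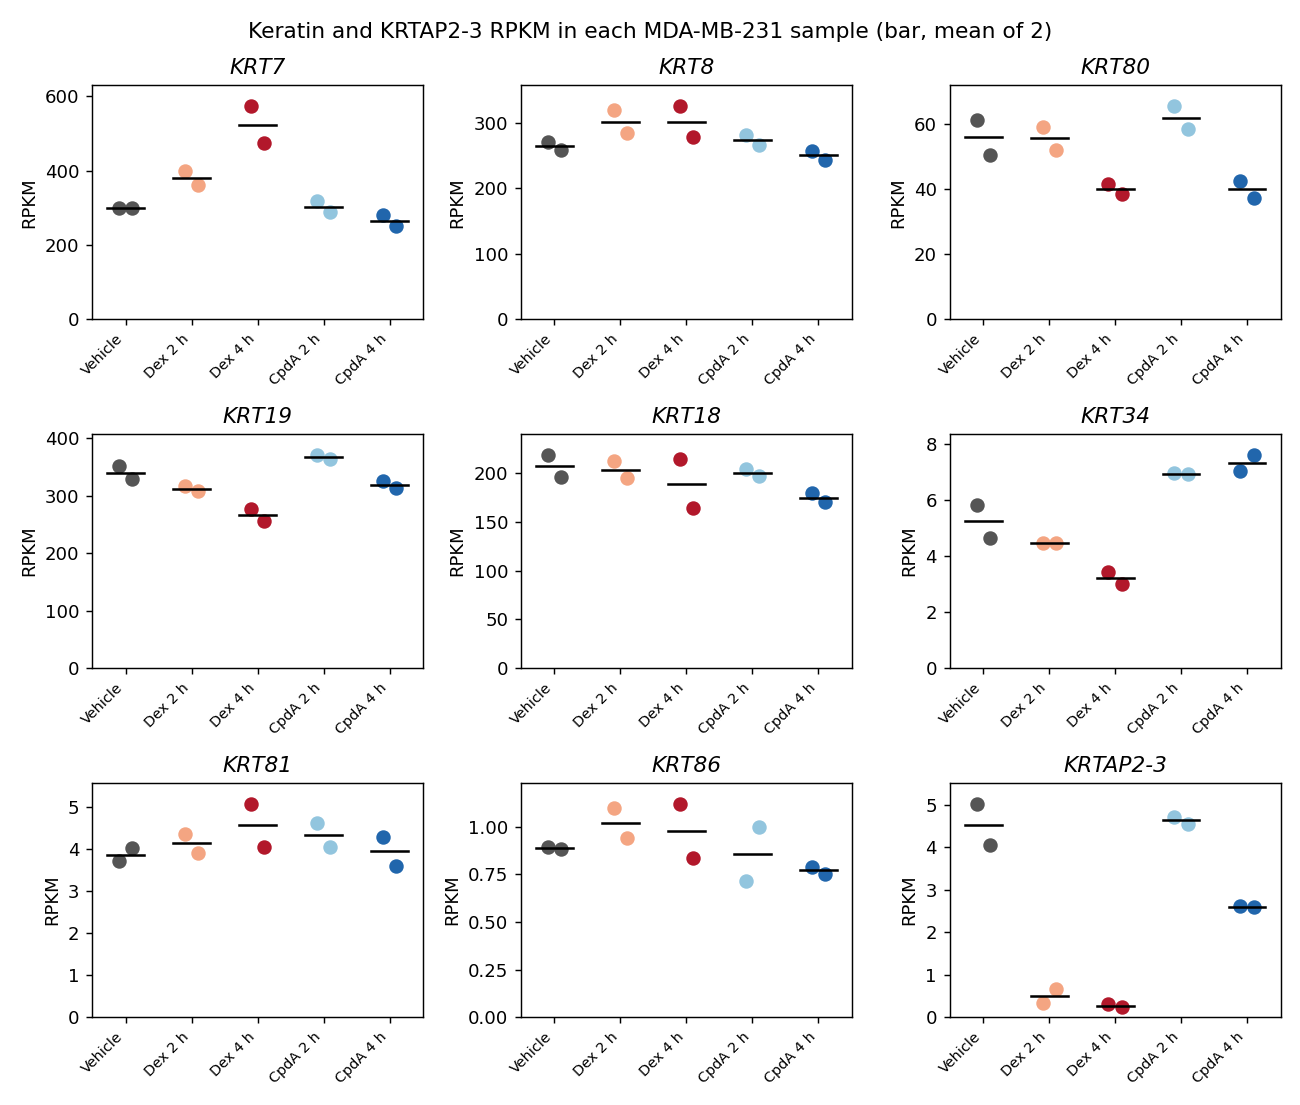
RPKM of the 9 genes (vertical axes, each from 0) in every sample of the 5 groups (horizontal axis), with points for samples and bars for the mean of 2. KRTAP2-3 lies at 0.230 to 0.662 RPKM in the 4 Dex samples and at 4.04 and 5.01 RPKM with vehicle, KRT7 reaches 475 and 573 RPKM after 4 h of Dex, and KRT34 is lowest after 4 h of Dex and highest after 4 h of CpdA.

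Of the 8 keratins, 0 passed the threshold after 2 h of Dex (limma, against 10.3% of all genes tested), and 3 had an unadjusted p under 0.05. After 4 h of Dex 4 of 8 passed, with KRT7 higher and KRT19, KRT34 and KRT80 lower, against 27.4% of all genes. After CpdA 0 of the 9 genes passed at 2 h, against 6.18% of all genes, and 1 had an unadjusted p under 0.05. At 4 h 2 of 9 passed with CpdA, against 20.5% of all genes, namely KRT34 (higher) and KRT80 (lower). The CpdA 4 h count was 0 without CpdA 4 h replicate 2, 1 without vehicle replicate 1 and 4 without either Dex 4 h replicate. The Dex 2 h count became 1 without vehicle replicate 2 or either Dex 4 h replicate, and the CpdA 2 h count became 1 without vehicle replicate 1 or either Dex 4 h replicate. The Dex and CpdA comparisons share their vehicle samples, so their counts are not independent of each other. The samples of 6 of the 8 keratins did not overlap with vehicle after 4 h of Dex and those of 7 of 8 did not overlap after 4 h of CpdA. Among all genes tested the shares were 55.1% and 64.7%, and 5 of 8 at 2 h of Dex and 3 of 8 at 2 h of CpdA stand beside 51.5% and 54.5%. The median log2 difference from vehicle of the 8 keratins was 0.04 at 2 h and -0.02 at 4 h of Dex and 0.08 at 2 h and -0.13 at 4 h of CpdA, beside -0.02, -0.05, -0.02 and -0.04 for all genes.

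KRT7, the type II keratin of glandular and ductal epithelia, was the single member called higher than vehicle with Dex, at 4 h. It measured 299 and 300.2 RPKM with vehicle, 399 and 362 RPKM after 2 h of Dex and 573 and 475 RPKM after 4 h of Dex. The Dex samples were higher than both vehicle samples at each time, and both 4 h samples were higher than both 2 h samples. The difference from vehicle was 0.34 (SE 0.09, limma adjusted p = 0.052) at 2 h, just short of the threshold and called in 7 of 20 alternative settings, and 0.80 (SE 0.09, limma adjusted p = 0.000232) at 4 h, or 1.74-fold. With CpdA KRT7 measured 317 and 288 RPKM at 2 h and 279.9 and 252 RPKM at 4 h, and neither difference was called (0.01 and -0.18, limma adjusted p = 0.965 and 0.229). The 4 h Dex samples exceeded the 4 h CpdA samples by 0.97 (SE 0.09, limma adjusted p = 5.31e-05), and this call and the 4 h call against vehicle were kept in 20 of 20 alternative settings. KRT7 rose from 2 h to 4 h of Dex by 0.46 (limma adjusted p = 0.0145), a change that exceeded its change over the same time with CpdA by 0.64 (SE 0.13, limma adjusted p = 0.0232). The call of the time change with Dex was lost without Dex 2 h replicate 2 (0.39, limma adjusted p = 0.107) and without Dex 4 h replicate 1 (0.32, limma adjusted p = 0.0502). That of the difference between ligands was lost without either replicate of Dex 2 h, CpdA 2 h or CpdA 4 h. At 2 h the Dex samples exceeded the CpdA samples by 0.33 (limma adjusted p = 0.0481), and 9 of 20 alternatives kept this call. It was lost without either replicate of vehicle, Dex 2 h, CpdA 2 h or CpdA 4 h, with differences of 0.26 to 0.40.

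KRT8, the type II partner of KRT18, moved less than KRT7. It measured 271 and 259 RPKM with vehicle, 319.8 and 284 RPKM after 2 h of Dex, and 326 and 278 RPKM after 4 h of Dex. Every Dex sample exceeded both vehicle samples, yet the differences of 0.19 and 0.18 (SE 0.08) were not called (limma adjusted p = 0.224 and 0.131). With CpdA it measured 281 and 266 RPKM at 2 h and 257 and 244 RPKM at 4 h (limma adjusted p = 0.813 and 0.538). The 4 h Dex samples were higher than the 4 h CpdA samples by 0.26 (SE 0.08, limma adjusted p = 0.0337). This call was lost in 7 of 20 alternative settings, among them those without Dex 4 h replicate 1 (0.15, limma adjusted p = 0.157), CpdA 2 h replicate 1, CpdA 4 h replicate 1 or CpdA 4 h replicate 2. KRT18, its type I partner, measured 218 and 196 RPKM with vehicle, 212 and 195 RPKM after 2 h of Dex and 214 and 164 RPKM after 4 h of Dex. The Dex 4 h replicates differed by more than the vehicle samples did, and KRT18 was called in none of the comparisons. It measured 204 and 197 RPKM after 2 h of CpdA and 179.8 and 170.1 RPKM after 4 h of CpdA, a difference of -0.24 (95% interval -0.49 to 0.01, limma adjusted p = 0.16) for the latter. Without either Dex 4 h replicate this difference was called, with limma adjusted p = 0.0212 and 0.0215. Without Dex 4 h replicate 1 the 4 h Dex difference of KRT18 from vehicle was called as well, at -0.33 (limma adjusted p = 0.0137).

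KRT19, a type I keratin that is unusual in having almost no tail domain, fell with Dex. It measured 351 and 329 RPKM with vehicle, 317 and 307 RPKM after 2 h of Dex and 277 and 257 RPKM after 4 h of Dex. The Dex samples were below both vehicle samples at either time. The 4 h difference was -0.35 (SE 0.05, limma adjusted p = 0.00108), or a decrease to 78.6% of the vehicle mean, and the 2 h difference was -0.12 (limma adjusted p = 0.219). With CpdA it measured 371 and 364 RPKM at 2 h and 325 and 313 RPKM at 4 h, and neither difference from vehicle was called (0.11 and -0.09, limma adjusted p = 0.274 and 0.265). KRT19 was lower with Dex than with CpdA at 2 h by -0.23 (limma adjusted p = 0.0169) and at 4 h by -0.26 (limma adjusted p = 0.00486). Both 4 h calls were kept in 20 of 20 alternative settings, and the 2 h call was lost without any one of its 4 samples, with differences of -0.26 to -0.21. From 2 h to 4 h KRT19 fell both with Dex (-0.23, limma adjusted p = 0.0235) and with CpdA (-0.20, limma adjusted p = 0.0367). The former call was lost without either Dex 2 h replicate, and the latter without either replicate of Dex 2 h, CpdA 2 h or CpdA 4 h.

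The ratio of type II to type I simple keratin RPKM was higher with Dex. The sum of KRT7 and KRT8 over the sum of KRT18 and KRT19 was 1.00 and 1.07 with vehicle, 1.36 and 1.29 after 2 h of Dex, and 1.83 and 1.79 after 4 h of Dex. With CpdA it was 1.04 and 0.988 at 2 h and 1.06 and 1.03 at 4 h. All 4 Dex samples lay above all of the other 6 samples, with the 4 h samples above the 2 h samples. The sum of all 9 genes varied less, from 0.332% to 0.446% of a sample's total RPKM. With vehicle, the ratio of KRT8 to KRT18 alone was 1.24 and 1.32. After Dex it was 1.51 and 1.46 at 2 h and 1.52 and 1.69 at 4 h. With CpdA it was 1.38 and 1.35 at 2 h and 1.43 and 1.43 at 4 h, also above both vehicle samples. Both ratios are given as a description, and no test of them was made.

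**Figure D2:**
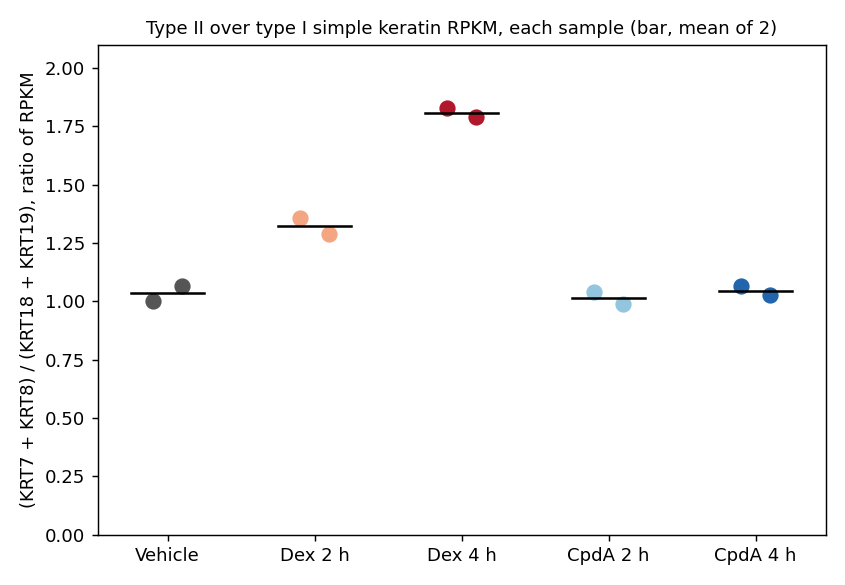
Ratio of the summed RPKM of KRT7 and KRT8 to that of KRT18 and KRT19 (vertical axis, from 0) in each sample of the 5 groups, with bars for the mean of 2. The ratio is 0.988 to 1.07 with vehicle and CpdA, 1.29 and 1.36 after 2 h of Dex, and 1.79 and 1.83 after 4 h of Dex.

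KRT80 was lower after 4 h of either ligand, by nearly the same amount. It measured 61.3 and 50.7 RPKM with vehicle, 59.2 and 52.2 RPKM after 2 h of Dex and 41.7 and 38.5 RPKM after 4 h of Dex. With CpdA it measured 65.6 and 58.6 RPKM at 2 h and 42.7 and 37.3 RPKM at 4 h. All 4 samples of 4 h lay below every vehicle and 2 h sample. The differences from vehicle at 4 h were -0.47 (SE 0.11, limma adjusted p = 0.00983) with Dex and -0.48 (SE 0.11, limma adjusted p = 0.0129) with CpdA. The direct difference between the ligands at 4 h was 0.01 with a 95% interval from -0.24 to 0.25. KRT80 also fell from 2 h to 4 h, by -0.47 (limma adjusted p = 0.0222) with Dex and -0.63 (limma adjusted p = 0.00779) with CpdA. Without vehicle replicate 1, both 4 h differences from vehicle lost their calls, at -0.338 with Dex (limma adjusted p = 0.0707) and -0.345 with CpdA (limma adjusted p = 0.081). The CpdA call was lost as well without CpdA 4 h replicate 2 (-0.38, limma adjusted p = 0.104). The Dex time change lost its call without Dex 2 h replicate 1 (-0.38) or Dex 4 h replicate 2 (-0.41), and the CpdA time change without CpdA 2 h replicate 1 (-0.55) or CpdA 4 h replicate 2 (-0.54).

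KRT34 moved in opposite directions with the ligands. It measured 5.84 and 4.66 RPKM with vehicle, 4.46 and 4.48 RPKM after 2 h of Dex and 3.45 and 3.01 RPKM after 4 h of Dex. With CpdA it measured 6.96 and 6.95 RPKM at 2 h and 7.03 and 7.61 RPKM at 4 h. The Dex samples lay below, and the CpdA samples above, both vehicle samples. Its reads, recovered as for KRTAP2-3, numbered 513 and 415 with vehicle, 320 and 290 after 4 h of Dex and 714 and 777 after 4 h of CpdA. After 4 h of Dex KRT34 fell by 0.68 (SE 0.10, limma adjusted p = 0.00117), and after 4 h of CpdA it rose by 0.48 (SE 0.10, limma adjusted p = 0.0118). The CpdA call was lost without CpdA 4 h replicate 2 (0.42, limma adjusted p = 0.0923). At 2 h neither difference was called (-0.22 with Dex, limma adjusted p = 0.274, and 0.41 with CpdA, limma adjusted p = 0.0541). The CpdA 2 h difference was called without vehicle replicate 1 (0.57, limma adjusted p = 0.00935) and without either Dex 4 h replicate, and the Dex 2 h difference without vehicle replicate 2 (-0.38, limma adjusted p = 0.0449).

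Dex and CpdA were separated by KRT34 already at 2 h. The Dex samples were lower than the CpdA samples by -0.63 (SE 0.10, limma adjusted p = 0.00341) at 2 h and by -1.16 (SE 0.10, limma adjusted p = 3.36e-05) at 4 h, or 0.448 of the CpdA level. Both calls and the 4 h Dex call were kept in 20 of 20 alternative settings. KRT34 also fell from 2 h to 4 h of Dex (-0.46, limma adjusted p = 0.0216), a call lost without either Dex 2 h replicate or without Dex 4 h replicate 2. The difference between its time changes with the ligands was -0.53 (SE 0.15, limma adjusted p = 0.0709), which was called without either vehicle replicate (limma adjusted p = 0.0225 and 0.0222) and without Dex 4 h replicate 1 (-0.63, limma adjusted p = 0.0493).

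KRT81 and KRT86, the type II hair keratins, were called in none of the comparisons. KRT81 measured 3.73 and 4.02 RPKM with vehicle, 4.36 and 3.92 RPKM after 2 h of Dex, 5.08 and 4.05 RPKM after 4 h of Dex, 4.63 and 4.05 RPKM after 2 h of CpdA and 4.30 and 3.60 RPKM after 4 h of CpdA. Its largest difference from vehicle was 0.22 (95% interval -0.06 to 0.51, limma adjusted p = 0.232) at 4 h of Dex, where one of the replicates stood well above the other. Without Dex 4 h replicate 2 this difference was called (0.38, limma adjusted p = 0.0446). KRT86 measured 0.896 and 0.884 RPKM with vehicle and between 0.717 and 1.12 RPKM in the 8 treated samples, which is 91 to 134 reads. Its 95% intervals against vehicle reached from -0.59 to 0.58 over the 4 treatments, and changes within that range are not excluded.

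The direct comparison of the ligands at matched times was made for 8 keratins at each time, with doses that differ (100 nM Dex and 10 μM CpdA). At 2 h 3 of 8 were called, with KRT7 higher with Dex and KRT19 and KRT34 lower, against 13.7% of all genes. At 4 h 4 of 8 were called, with KRT7 and KRT8 higher and KRT19 and KRT34 lower, against 33.4% of all genes. The 2 h count fell to 1 of 8 without either replicate of Dex 2 h or of CpdA 2 h. Between 2 h and 4 h, 4 of the 8 keratins were called with Dex (against 13.6% of all genes) and 2 of the 9 genes with CpdA (against 12.4%), and 1 of the 8 keratins differed in its time change between the ligands (against 6.6%). The count of 4 fell to 2 without Dex 4 h replicate 2 and to 1 without either Dex 2 h replicate. The count of 2 with CpdA fell to 0 without CpdA 2 h replicate 1 or CpdA 4 h replicate 2 and to 1 without the other replicate of either group.

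**Figure D3:**
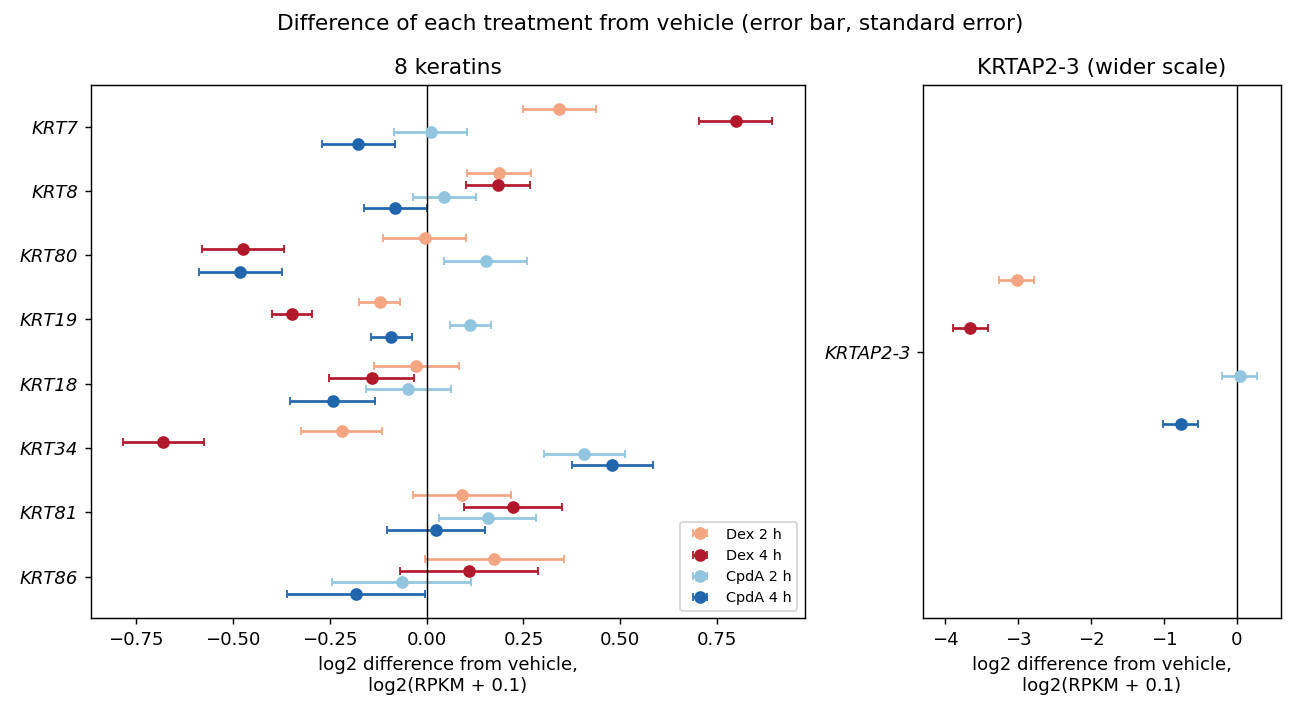
Log2 difference from vehicle on the log2(RPKM + 0.1) scale (horizontal axes) of the 8 keratins (left) and KRTAP2-3 (right, wider scale) for each ligand and time, with bars for the standard error. KRT7 lies at 0.80 and KRT34 at -0.68 after 4 h of Dex, KRT80 lies at -0.47 and -0.48 after 4 h of Dex and CpdA, and KRTAP2-3 lies at -3.66 after 4 h of Dex and -0.77 after 4 h of CpdA.

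Of all 34 keratin symbols in the files 13 were kept by the filter on low values, among them the 8 members. Of 15 keratin-associated symbols KRTAP2-3 was the single one kept, and the other 14 reached at most 0.144 RPKM in any sample. The 15 do not include KRTAP2-1, KRTAP2-2 or KRTAP2-4, which share sequence with KRTAP2-3. The other 5 keratins kept were KRT10, KRT15, KRT16, KRT17 and KRT33B. KRT17, a type I keratin of basal and injured epithelium, measured 1.04 and 0.979 RPKM with vehicle, 0.654 and 0.542 RPKM after 2 h of Dex, 0.598 and 0.486 RPKM after 4 h of Dex, 1.99 and 2.22 RPKM after 2 h of CpdA and 2.43 and 2.26 RPKM after 4 h of CpdA. Like KRT34 it was lower than vehicle in every Dex sample and higher in every CpdA sample. Its differences from vehicle were -0.67 and -0.80 with Dex (limma adjusted p = 0.0108 and 0.00202) and 0.99 and 1.14 with CpdA (limma adjusted p = 0.00314 and 0.00051). KRT15 (type I, basal epithelium) was also lower at 4 h of Dex (-0.43, limma adjusted p = 0.0145) and higher at 4 h of CpdA (0.38, limma adjusted p = 0.034). KRT33B (type I hair keratin) fell at 4 h of Dex (-0.68, limma adjusted p = 0.0187). Its reads numbered only 44 and 50 with vehicle and 29 and 27 after 4 h of Dex. KRT33B shares sequence with KRT34, which had more reads, so its values may not be independent of KRT34. KRT16 (type I, paired with KRT6) measured 0.205 and 0.247 RPKM with vehicle and 0.648 and 0.675 RPKM after 4 h of CpdA. The filter of 0.5 RPKM in 2 samples kept KRT16 only through the latter samples, so its difference is given with no test. At 4 h KRT15, KRT17 and KRT33B were lower with Dex than with CpdA, by -0.81, -1.94 and -0.91 (limma adjusted p = 0.000347, 5.81e-06 and 0.0036), a comparison in which 33.4% of all genes were called.

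**Figure D4:**
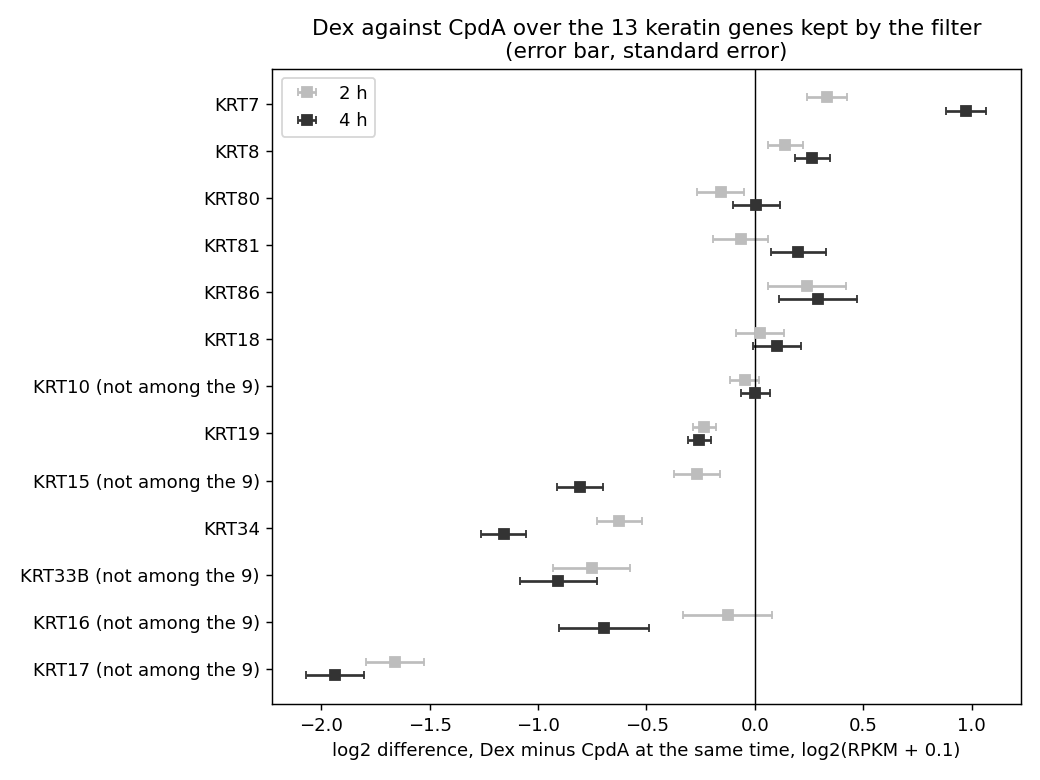
Log2 difference of Dex minus CpdA at 2 h and at 4 h on the log2(RPKM + 0.1) scale (horizontal axis) for the 13 keratins kept, with bars for the standard error. KRT7 is the highest at 4 h (0.97), KRT80 lies at 0.01, and KRT34 (-1.16) and KRT17 (-1.94) are the lowest at 4 h.

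Genes whose products bind or attach keratin filaments, and regulators of keratin genes, were described from lists, whose counts at 4 h stand beside 27.4% of all genes called with Dex and 20.5% with CpdA. Of 14 desmosome and hemidesmosome genes kept, 2 rose and 0 fell after 4 h of Dex, and 0 rose and 6 fell after 4 h of CpdA, with median differences of -0.09 and -0.26 beside -0.05 and -0.04 for all genes. PKP2, a plaque protein of desmosomes, rose by 1.47 (limma adjusted p = 2.47e-07) with Dex and fell by 0.45 (limma adjusted p = 0.00102) with CpdA. ITGB4, the hemidesmosome integrin, rose by 0.40 (limma adjusted p = 0.00058) with Dex and fell by 0.31 (limma adjusted p = 0.00441) with CpdA. EVPL, an envelope and desmosome plakin, fell by 0.74 (limma adjusted p = 0.000805) with CpdA. Of the 9 other intermediate filament genes kept, 1 rose and 3 fell after 4 h of Dex and 0 rose and 4 fell after 4 h of CpdA. VIM, the filament protein of mesenchymal cells, measured between 1267 and 1464 RPKM and was not called at 4 h (-0.12 with Dex, limma adjusted p = 0.165, and -0.07 with CpdA, limma adjusted p = 0.439). Of 18 genes for keratin binding and modification 5 rose and 4 fell after 4 h of Dex and 4 rose and 3 fell after 4 h of CpdA. Of these DNAJB6, a chaperone that binds KRT18, fell by 0.42 (limma adjusted p = 3.2e-05) with Dex and rose by 0.225 (limma adjusted p = 0.00292) with CpdA. SFN (14-3-3 sigma) rose by 0.57 (limma adjusted p = 7.15e-05) with CpdA and by 0.14 (limma adjusted p = 0.0442) with Dex.

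Transcription factors with known roles at epithelial keratin genes moved in both directions. Of 7 kept, 2 rose and 2 fell after 4 h of Dex, and 1 rose and 2 fell after 4 h of CpdA. KLF4 and KLF5, zinc finger factors of epithelial differentiation, rose by 0.97 and 0.56 with Dex (limma adjusted p = 4.33e-06 and 2.15e-05), and KLF5 rose with CpdA as well, by 0.28 (limma adjusted p = 0.00268). TFAP2A and EHF fell by 1.30 and 1.13 with Dex (limma adjusted p = 2.61e-05 and 4.47e-05), and with CpdA EHF fell by 0.75 (limma adjusted p = 0.00112) and TFAP2C by 0.82 (limma adjusted p = 3.32e-05). Of 6 regulators of hair keratins kept, 2 rose and 0 fell after 4 h of Dex and 0 rose and 3 fell after 4 h of CpdA. FOXQ1, a hair shaft factor, rose by 0.63 (limma adjusted p = 2.4e-05) with Dex and fell by 0.46 (limma adjusted p = 0.000452) with CpdA. Of the cornified envelope genes 2 of 20 listed were kept, of which FLG (filaggrin) fell by 1.45 with Dex (limma adjusted p = 0.000823).

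By Pearson correlation of log2(RPKM + 0.1) over the 10 samples, the genes most like KRTAP2-3 were FOSL1 (r = 0.987), TRAF3IP2 (0.986), HBEGF (0.985), IRF2BPL (0.984) and VEGFA (0.983). Those most like KRT7 were BOK (0.995), GIPC1 (0.994), DERA (0.991), NDFIP1 (0.99) and GMPR (0.985). Those most like KRT81 were CYB5R3 (0.959), TSPO (0.944), ARL6IP4 (0.943), RPS29 (0.941) and JOSD2 (0.938). The points share libraries and the 5 groups, and KRTAP2-3 was chosen for the pattern that sets its correlations. Among the members, KRT19 (r = 0.856) and KRT34 (r = 0.825) were most like KRTAP2-3 and KRT7 (r = -0.854) least like it.

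Several members share sequence with other genes, so reads could be split between them. Of the words of 50 bases in the canonical transcript of KRTAP2-3, 39.7% occur in other genes. The shares were 39.5% in KRTAP2-4, 32.9% in KRTAP2-1 and 30.4% in KRTAP2-2. None of these 3 genes is among the symbols with a value, and how reads from them were assigned is not known. For KRT81 the share was 44.6%, with 38.4% in KRT86, and for KRT86 it was 39.95%, so the values of this pair are uncertain. For KRT8 the share was 39.2% and for KRT18 36.7%, mostly in their pseudogenes. KRT34 had a share of 12.2%, with 7.12% in KRT33B, and KRT7, KRT19 and KRT80 had at most 1.79%. By position KRT81 lies within KRT86 on the opposite strand (5622 shared bases), KRT8 and KRT18 overlap by 1084 bases on opposite strands, and KRT7 and KRT86 by 2887 bases on the same strand. Whether strand was used in counting is not given in the sources used here.

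Known ligand responses and cell markers were read in the same samples. Of the responsive genes, FKBP5, a direct GR target, rose by 4.98 after 4 h of Dex and HSPA6, a heat shock chaperone, by 6.64 after 4 h of CpdA on the log2 scale. The filter kept HSPA6 only through the CpdA samples, so its difference is given with no test. PER1, FKBP5 and TSC22D3 also rose after 4 h of CpdA, by 0.82, 0.28 and 0.27 (limma adjusted p = 0.00832, 0.0226 and 0.0299). In that comparison 20.5% of all genes were called. After 4 h of Dex PER1 and TSC22D3 rose by 4.45 and 5.10. Of the MDA-MB-231 markers, the sum of 4 high genes, mostly VIM, was 1628 to 1922 RPKM, lower in each of the 8 treated samples than with vehicle. After 4 h, 3 of the 4 were called lower with Dex and 1 with CpdA, beside 27.4% and 20.5% of all genes. NR3C1 fell from 21.6 RPKM with vehicle to 14.6 and 11.0 RPKM after 2 h and 4 h of Dex (limma adjusted p = 0.00269 and 3.72e-05). With CpdA NR3C1 was not called at 2 h or 4 h (limma adjusted p = 0.192 and 0.68). Of the 5 genes listed as low in this line, whose sum was 26.5 to 30.7 RPKM, ESR1 and PGR were at most 0.0048 and 0.0025 RPKM and CDH1 at most 0.465 RPKM. ERBB2, the third receptor of the TNBC definition, measured 15.9 to 21.6 RPKM and was called after 4 h (0.22 with Dex, limma adjusted p = 0.00832, and -0.16 with CpdA, limma adjusted p = 0.0406), and EPCAM measured 8.02 to 10.6 RPKM. Of the keratinocyte markers KRT5, KRT14 and TP63 were at most 0.113 RPKM, while KRT10 measured 14.4 to 17.4 RPKM and made up most of the list's sum of 14.5 to 17.5 RPKM. The endothelial markers summed to 0.196 to 0.362 RPKM. The leukocyte markers summed to 2.22 to 2.91 RPKM, mostly CD14, with PTPRC at most 0.063 RPKM, and the fibroblast markers to 4.16 to 5.30 RPKM, mostly LUM and PDGFRB, with DCN at most 0.0142 RPKM. Relative depth ran from 1.0 in vehicle replicate 1 to 1.21 in a Dex 2 h sample, with both vehicle samples the shallowest, and the part of depth in the differences from vehicle was not tested. Total reads are not given, so intervals from read counts are not stated.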

How the data were processed

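RNA from the 10 samples was sequenced in single-end reads. The authors aligned reads with TopHat2 2.0.13 and Bowtie, computed RPKM in Partek 6.6 and deposited RPKM for 20668 symbols per sample, each symbol once. The genome build of the RNA alignment and any use of strand are not given in the sources used here. The ChIP samples of the series were not analysed here, and the authors' own comparison columns (fold changes and p-values, in a supplement) were not used.

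Groups came from the sample labels. Analyses used log2(RPKM + 0.1). A gene was kept if 2 or more samples reached 0.5 RPKM, which left 12713 genes. The 5 groups entered a single limma model (limma 3.58.1, R 4.3.3, eBayes with abundance trend) with Benjamini-Hochberg adjustment across the genes kept, and a gene was called at an adjusted p under 0.05. Fold changes and differences are on this scale. Whole reads were recovered where the RPKM values of a low gene were multiples of one step, with a tolerance of 0.02 read. The fit was tested on simulated data.

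The 9 members were named in full. Other keratins were named if kept and called against vehicle, up to 4 called genes were named from each list, and the 5 genes most correlated with KRTAP2-3, KRT7 and KRT81 were named. VIM and the marker genes outside this rule were named to read the cell type. Members and lists were chosen with earlier results of these data known. Alternatives were other pseudocounts, filters, scalings, variance models, sample subsets, a replicate block and leaving out each replicate. Gene positions and shared words came from GENCODE v44 on GRCh37, and promoter windows from RefSeq on GRCh38.p14. Python 3.11.15, numpy 2.4.6, pandas 2.3.3 and matplotlib 3.10.9 were used. Relative depth ran from 1.0 to 1.21.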

Additional observations from a re-analysis of the deposited data

Results flagged for a closer look

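Levels differed between 2 h and 4 h of a ligand for 4 genes with Dex and 2 genes with CpdA, by the test of the difference between the times in limma. Since the vehicle samples carry no labelled time, a change with the ligand and one with time alone cannot be told apart. With Dex, KRT7 was higher at 4 h by 0.46 and KRT19, KRT34 and KRT80 were lower by -0.23, -0.46 and -0.47. With CpdA, KRT19 was lower at 4 h by -0.20 and KRT80 by -0.63. The time changes of KRT19 and KRT80 were not called different between the ligands (limma adjusted p = 0.91 and 0.608). Each group holds 2 samples, too few for a check of single samples that stand apart.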

How the results depend on the processing

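Over 20 alternative settings, 1431 of 1602 values of single genes stayed the same. For tested values this means the same direction and side of the threshold. For the untested KRTAP2-3 values with Dex it means the same direction and a shift smaller than the SE. Of the others, 64 lost a call, 51 gained one, 42 turned their sign (none of them called) and 14 untested values moved further. The counts of members called moved as follows. With no filter they were 1 for CpdA 4 h, 1 for Dex against CpdA at 2 h, 0 for Dex 4 h against 2 h, 1 for CpdA 4 h against 2 h and 0 for the difference in time change. CpdA 2 h had 1 under a pseudocount of 1, under a filter of 1 RPKM in every sample, under quantile normalization and under median scaling. Dex 2 h had 1 under that filter, with robust variances and with only the samples compared, and 2 under quantile normalization. CpdA 4 h had 7 under quantile normalization. CpdA 4 h against 2 h had 1 under median scaling and 1 without the abundance trend, where the difference in time change had 0. With only the samples compared, the counts were 4 for CpdA 4 h, 1 for Dex 4 h against 2 h, 4 for CpdA 4 h against 2 h and 2 for the difference in time change. Outside leaving out replicates, the counts for Dex 4 h were 4 to 5, those for Dex against CpdA 1 to 4 at 2 h and 3 to 4 at 4 h. Leaving out each replicate gave 0 to 1 for Dex 2 h, 3 to 6 for Dex 4 h, 0 to 1 for CpdA 2 h, 0 to 4 for CpdA 4 h, 1 to 3 for Dex against CpdA at 2 h, 3 to 5 at 4 h, 1 to 4 and 0 to 3 for the time changes with Dex and CpdA, and 0 to 2 for their difference. Where the lone sample of a group remained, it was assumed to vary like the other groups.

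The labels do not say whether samples with the same replicate number were paired, and the main fit treated them as unpaired. Deviations from the group means correlated by -0.0568 to 0.198 over 10 pairs of samples with the same number (mean 0.0544). Of the 10 samples 10 correlated best with a sample of their own number, a hint from the data only. In a group of 2 the deviations of the replicates mirror each other, so these are at most 5 separate outcomes. Replicate 1 was the higher in all 5 groups for 4 of the 9 genes (KRT8, KRT18, KRT19 and KRT80) and for 8.97% of all genes tested. For 15.5% of all genes tested the same replicate number, 1 or 2, was the higher in all 5 groups. These values do not settle whether the numbers pair the samples. With the replicate block 2 members, KRT7 and KRT8, were called at Dex 2 h, in place of 0.

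Signs turned only in differences that were not called. Under quantile normalization they were KRT80 0.002 at Dex 2 h, KRT7 -0.052 and KRT8 -0.006 at CpdA 2 h, KRT80 -0.015 for Dex against CpdA at 4 h and KRT8 0.001 for Dex 4 h against 2 h. Under median scaling they were KRT80 0.01 at Dex 2 h, KRT8 0.053 for Dex 4 h against 2 h and KRT19 0.001 for the difference in time change. The other ranges are those of leaving out each replicate. For CpdA 2 h against vehicle they were KRT18 -0.126 to 0.030, KRT7 -0.058 to 0.080, KRT86 -0.277 to 0.148 and KRTAP2-3 -0.113 to 0.191. For Dex 2 h against CpdA 2 h they were KRT18 -0.039 to 0.083 and KRT81 -0.160 to 0.029. For Dex 2 h against vehicle they were KRT18 -0.104 to 0.052 and KRT80 -0.141 to 0.131. For Dex 4 h against CpdA 4 h they were KRT18 -0.091 to 0.292 and KRT80 -0.091 to 0.106. For Dex 4 h against Dex 2 h they were KRT18 -0.307 to 0.076, KRT8 -0.116 to 0.111, KRT81 -0.028 to 0.291 and KRT86 -0.258 to 0.128. For Dex 4 h against vehicle they were KRT18 -0.333 to 0.050 and KRT86 -0.083 to 0.302. For the difference in time change between the ligands they were KRT18 -0.112 to 0.271, KRT19 -0.078 to 0.034, KRT86 -0.160 to 0.265 and KRTAP2-3 -0.252 to 0.599. For CpdA 4 h against vehicle they were KRT81 -0.101 to 0.148. For CpdA 4 h against CpdA 2 h they were KRT86 -0.330 to 0.095. KRTAP2-3 with Dex was -1.89 at 2 h and -2.12 at 4 h with a pseudocount of 1, and -4.04 at 4 h with 0.01. In each of these the cause was not tested, and depth is known only in relative terms, so no limit from read totals is given.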
